A study of Rattus norvegicus with 4 samples.

Results

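Fatty acids enter heart muscle cells, are stored or activated, and are burned in mitochondria, and 39 rat genes of this route were followed after knockdown of Cpeb4. The genes were chosen by name, and a gene counted as found where its symbol matched exactly in the deposited tables. Of the 39, 37 were among the 22250 genes listed and 34 had enough footprints to be tested. Cd36 and Eci2 had no row under those symbols and were not analysed here. Echs1 and Pnpla2 were listed at 0 in all 4 libraries, and Ucp3 had 0 to 4 counts per library.

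The libraries are ribosome footprints, the short mRNA pieces that ribosomes protect from nuclease, from cultured ventricular cardiomyocytes of Wistar rats aged 1 to 2 days. The cells were freed from the heart with trypsin and enriched on a Percoll gradient. There were 2 libraries from cells given control siRNA and 2 from cells given CPEB4 siRNA, each after 72 h of silencing. The growth protocol of all 4 also names Torin1, an inhibitor of the kinase mTOR, at 250 nM for 24 h, without saying which cells received it. Whether replicates were separate cultures is not labelled, and the spread behind each p-value is that of these libraries, possibly technical only. CPEB4 binds cytoplasmic polyadenylation elements in the untranslated ends of mRNAs and regulates their tails and translation.

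Long-chain fatty acids cross the cell membrane with the help of transport proteins, are carried by small binding proteins in the cytosol and are coupled to coenzyme A. The acyl-CoA is either esterified into lipid droplets or passed into mitochondria by the carnitine shuttle. There the beta-oxidation spiral removes acetyl-CoA in repeated rounds of dehydrogenation, hydration, a further dehydrogenation and thiolysis. Around birth the heart moves from glucose and lactate towards fatty acids as its main fuel, and nuclear receptors of the PPAR and ERR families with their PGC-1 coactivators drive many of these genes.

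Gene counts summed to between 3554011 and 5910911 per library. Levels are given as CPM, a gene's footprint count scaled to a common library total of all gene counts, in the order control replicate 1, control replicate 2, siCpeb4 replicate 1 and siCpeb4 replicate 2. A count of 0 allows up to 3 counts, which is 0.508 to 0.844 CPM depending on the library, for counting error only. The abundant collagen gene Col1a2 was also listed at 0 beside Col1a1 at 5374 to 8586 CPM, so a 0 in these tables is not read as absence of a gene's mRNA. Cpeb4 itself had 59.9, 71.2, 8.18 and 9.98 CPM. Of 10 cardiomyocyte markers, 9 were found, none of these at 0, and their summed level was 54893 to 61799 CPM, mostly Myh6 and Myh7. Transcript amount and ribosome load per transcript cannot be told apart in footprint counts alone.

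One gene of the route, Hadh, changed after Cpeb4 siRNA. That is 1 of 34 tested, or 2.94%, against 3.41% of the 11335 genes tested over the whole table, of which 1.54% were higher and 1.87% lower (edgeR quasi-likelihood test, Benjamini-Hochberg adjusted p under 0.05 over all genes). The share is close to the background and is no result about the list. DESeq2 and limma-voom also called 1 gene of the list each, again Hadh. The median log2 fold change of the 34 genes was -0.02, with 17 positive and 17 negative, against a median of -0.00 over all genes tested, 49.5% of them positive. The log2 fold change lay within 0.25 of 0 in 22 of the 34, or 64.7%, as in 65.9% of all genes tested.

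With Hadh included, 13 of the 34 had an unadjusted p under 0.05, 6 higher and 7 lower after Cpeb4 siRNA. That is 38.2%, against 16.1% of all genes tested, 7.33% higher and 8.76% lower. The count of 13 was 9 in DESeq2 and 15 in limma-voom. Over all 11335 genes the same count was 1824 in edgeR, 880 in DESeq2 and 1860 in limma-voom. For the list it was below 13 in edgeR with any 1 library left out, where 1 group has a single library. Over all genes it also fell with 1 library left out, except without siCpeb4 replicate 1. At an adjusted p under 0.10, Pdk2 and Plin5 joined Hadh, which is 3 of 34 against 5.55% of all genes tested. The listed genes were counted more deeply, with a median of 4291.5 footprints over the 4 libraries against 576, and their median standard error (SE) was 0.11 against 0.17 on the log2 scale. The median absolute log2 fold change was 0.18 in the list and 0.17 over all genes with counts in every library. The larger error of the less deeply counted genes adds to the second value, and genes of matched depth were not compared. In 16 of the 34, or 47.1%, control and siCpeb4 libraries did not overlap in CPM, against 46.0% of all genes tested. Of the 34, 7 lay higher and 9 lower without overlap after Cpeb4 siRNA, against 26.5% and 19.5% of all genes tested. The higher share was thus smaller than over all genes and the lower share larger, a difference that was not tested. The route was mixed in direction.

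**Figure D1:**
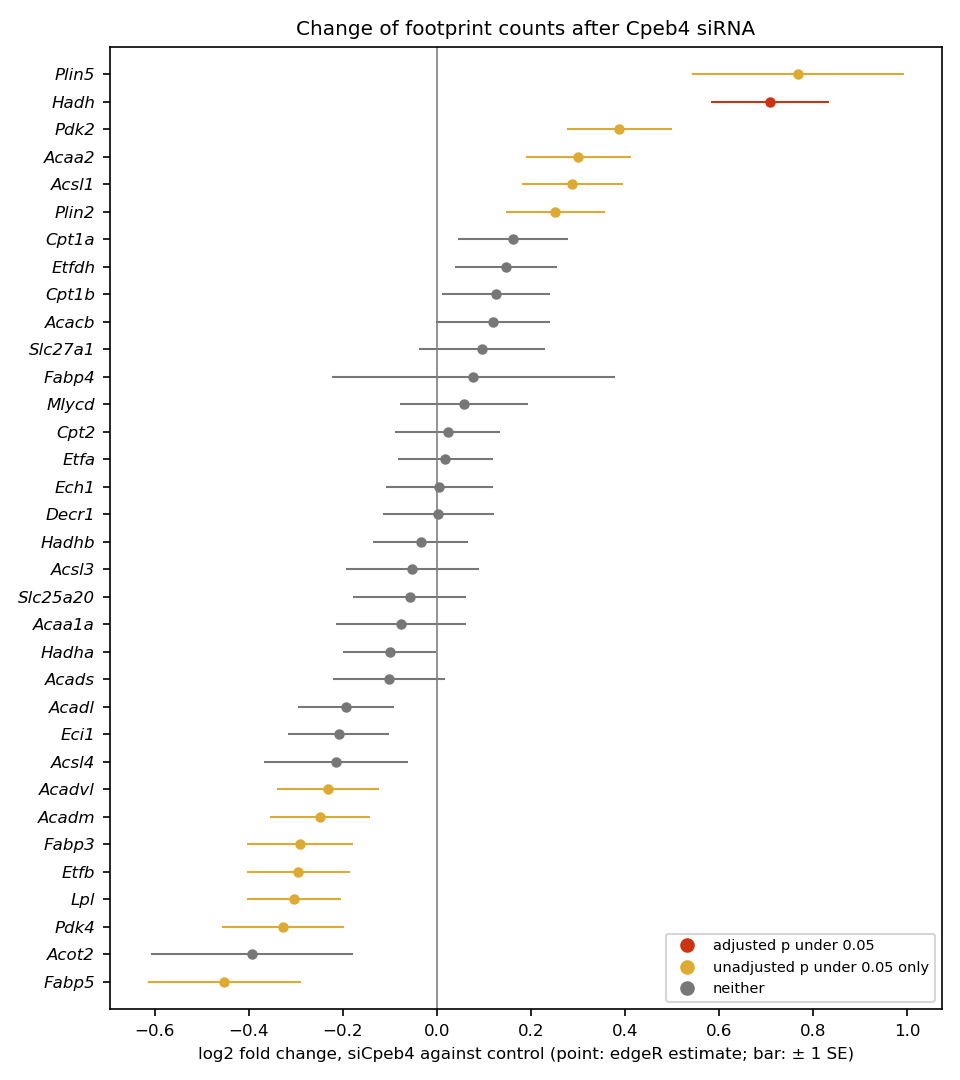
Each point is the log2 fold change of 1 of the 34 tested genes, siCpeb4 against control, and each bar is ± 1 SE of the edgeR fit, with genes ordered by the estimate. Hadh is the only gene past the adjusted threshold, Plin5 has the highest estimate with a wide bar, and 17 genes lie on each side of 0.

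Of the uptake and binding genes, Fabp3 and Lpl were lower in both siCpeb4 libraries without passing the test. Fabp3, the fatty acid binding protein of heart and skeletal muscle, had 1477, 1764, 1462 and 1240.2 CPM. Both siCpeb4 libraries were below both controls, but only narrowly for siCpeb4 replicate 1. Its mean was 1621 ± 203 CPM in controls and 1351 ± 157 CPM after siRNA (SD, n = 2), a log2 fold change of -0.29 ± 0.11 (SE) that did not pass (edgeR adjusted p = 0.185). It ran from -0.43 without siCpeb4 replicate 1 to -0.15 without control replicate 2. Fabp3 alone made up 14.9% to 18.9% of the listed genes' footprints.

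Lpl, lipoprotein lipase, which frees fatty acids from circulating triglyceride, had 344, 317, 270.0 and 277 CPM. The groups did not overlap, and the replicates lay close together. The log2 fold change was -0.30 ± 0.10 (edgeR adjusted p = 0.108). Fabp5, the epidermal type binding protein, had 175, 107, 90.6 and 122 CPM, and Fabp4, the adipocyte and macrophage type, had 15.9, 7.32, 9.0 and 16.9 CPM. The groups overlapped for both. The Fabp4 replicates of each group, and the Fabp5 controls, differed more than the group means did. The log2 fold changes were -0.45 ± 0.16 for Fabp5 (edgeR adjusted p = 0.149) and 0.08 ± 0.30 for Fabp4 (edgeR adjusted p = 0.937). The Fabp5 value rested on single libraries, with -0.05 without control replicate 1 (edgeR adjusted p = 0.968), -0.27 without siCpeb4 replicate 1 (0.477) and -0.74 without control replicate 2 (0.000673). Slc27a1, the transport protein FATP1, had 57.1, 59.1, 70.2 and 56.7 CPM, with only siCpeb4 replicate 1 above the rest. None of the 5 tested genes of this step passed in the main edgeR fit, and Fabp3, Fabp5 and Lpl had an unadjusted p under 0.05. With no low-count filter Fabp3 (edgeR adjusted p = 0.0497) and Fabp5 (0.00812) passed. Both also passed with a crossed pairing of the replicates, added after seeing the data (edgeR adjusted p = 0.0225 and 0.0369).

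Fabp4, Fabp5 and Lpl are also made by other cells of the heart, so markers of those cells are given beside them. All 8 macrophage markers listed were found, and their summed level was 812 and 556 CPM in controls and 515 and 724 CPM after siRNA. Control replicate 1 and siCpeb4 replicate 2 were thus the higher libraries for macrophage markers, as they were for Fabp4 and Fabp5. All 8 fibroblast markers were found, with only Col1a2 at 0, and summed to 13079 and 12048 CPM in controls and 9712 and 9170.0 CPM after siRNA. Most of this sum was Col1a1, at 8586, 7867, 6072 and 5374 CPM, and Col3a1. Of the 7 tested, 6 had estimates below 0, all but Tcf21, and only Col1a1 passed (edgeR adjusted p = 0.00339). The groups overlapped for Dcn, Lum, Postn and Tcf21. Of the 6 adipocyte markers, Adipoq, Lep, Plin1 and Cidec were at 0, Retn was at or below 1.02 CPM, and the sum of 18.9, 14.1, 10.8 and 10.8 CPM was nearly all Cfd. Of 10 endothelial markers 9 were found, none at 0 in every library. They summed to 354 and 346 CPM in controls and 391 and 384 CPM after siRNA. Most of this sum was Aqp1, at 193, 217, 261 and 244 CPM. Of the 7 endothelial markers tested, 5 had estimates below 0 and none passed. The part of these cells in the changes of Lpl, Fabp4 and Fabp5 was not tested, and fewer cells of a type cannot be told apart from less RNA per cell in bulk libraries.

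Activation to acyl-CoA is carried out by the acyl-CoA synthetases. Acsl1, the main heart isoform, had 255, 279, 353 and 312 CPM. Both siCpeb4 libraries were above both controls. The mean went from 267 ± 16.3 to 332 ± 28.9 CPM (SD, n = 2), with a log2 fold change of 0.29 ± 0.11 that did not pass (edgeR adjusted p = 0.163) and was 0.19 without siCpeb4 replicate 1. Acsl3, an isoform found on the endoplasmic reticulum and lipid droplets, stayed between 37.2 and 44.5 CPM in the 4 libraries (log2 fold change -0.05 ± 0.14). Acsl4, which prefers arachidonic acid, had 73.5, 73.2, 49.9 and 78.5 CPM, with siCpeb4 replicate 1 alone low (-0.21 ± 0.15). Of the 3 genes none passed in the main edgeR fit and 1, Acsl1, had an unadjusted p under 0.05.

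Storage genes were higher in both siCpeb4 libraries, without passing the test. Plin5, a lipid droplet coat protein of oxidative tissues that links droplets to mitochondria, had 55, 37, 86 and 98 counts, or 9.38, 10.4, 17.6 and 16.6 CPM. The lower siCpeb4 library was 1.59 times the higher control. The log2 fold change of 0.77 ± 0.23 was the highest estimate of the list, but its few counts gave a wide error (edgeR adjusted p = 0.0656). The adjusted p was 0.046 with robust edgeR and 0.0241 without the low-count filter. It was 0.0854 with the replicate block and 0.129 to 0.431 with 1 library left out, highest without control replicate 1 (all edgeR). Plin2, the droplet coat protein found in most cells, had 215, 192, 249 and 246 CPM. Its groups did not overlap either, and the log2 fold change was 0.25 ± 0.10 (edgeR adjusted p = 0.226). Both tested storage genes had an unadjusted p under 0.05. Pnpla2, the adipose triglyceride lipase ATGL, was listed at 0, so the lipase that opens droplet hydrolysis has no value here.

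The carnitine shuttle differed little between groups. Cpt1b, the muscle isoform of carnitine palmitoyltransferase 1 and the gate of mitochondrial entry, had 355, 434, 474 and 404 CPM. Cpt1a, the liver isoform that is also made in the newborn heart, had 192, 218, 257 and 211 CPM. In both, siCpeb4 replicate 1 was highest, siCpeb4 replicate 2 lay between the controls, and control replicate 1 was lowest. The log2 fold changes were 0.13 ± 0.12 for Cpt1b (edgeR adjusted p = 0.657) and 0.16 ± 0.12 for Cpt1a (edgeR adjusted p = 0.547). The Cpt1b value turned to -0.024 without control replicate 1 and the Cpt1a value was 0.0034 without siCpeb4 replicate 1.

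The inner steps of the shuttle gave smaller values. Cpt2, which returns the acyl group to coenzyme A, had a log2 fold change of 0.02 ± 0.11, and Slc25a20, the carnitine and acylcarnitine translocase, one of -0.06 ± 0.12. Acacb, the acetyl-CoA carboxylase that makes the CPT1 inhibitor malonyl-CoA, had 0.12 ± 0.12, and Mlycd, which degrades malonyl-CoA, had 0.06 ± 0.14. None of the 6 genes passed in the main edgeR fit, none had an unadjusted p under 0.05, and the groups overlapped in all 6. With these errors, changes of the size seen in Hadh lie outside 2 SE of each of the 6 estimates.

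For the first dehydrogenation and the electron transfer that follows it, 5 of 7 genes had estimates below 0. Etfb, the beta subunit of the electron transfer flavoprotein, had 404, 425, 377 and 313 CPM. Both siCpeb4 libraries were below both controls, and siCpeb4 replicate 2 was the lowest. The log2 fold change was -0.29 ± 0.11 (edgeR adjusted p = 0.162), and it was -0.45 without siCpeb4 replicate 1 (edgeR adjusted p = 0.035) and -0.15 without siCpeb4 replicate 2 (0.575). Its partner subunit Etfa had 354, 356, 380.2 and 354 CPM, a log2 fold change of 0.02 ± 0.10. The paired subunits thus had different estimates, and that difference was not tested. Etfdh, which passes the electrons on to ubiquinone, had 185, 215, 218 and 233 CPM, with a log2 fold change of 0.15 ± 0.11.

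The acyl-CoA dehydrogenases act on chains of different length. Acadvl, for very long chains, had 423, 433, 406 and 337 CPM and an estimated log2 change of -0.23 ± 0.11 (edgeR adjusted p = 0.292). Acadl, for long chains, had 532, 530.4, 502 and 447 CPM and an estimated log2 change of -0.19 ± 0.10 (edgeR adjusted p = 0.367). Acadm, for medium chains, had 222, 237, 207 and 188 CPM and an estimated log2 change of -0.25 ± 0.11 (edgeR adjusted p = 0.244). In all of these the groups did not overlap and siCpeb4 replicate 2 was lowest. That library was deposited with the narrower footprint window of 29 to 33 nt, whose part in these values was not tested. Without that library the log2 fold changes were -0.09 for Acadvl, -0.10 for Acadl and -0.17 for Acadm. Acads, for short chains, overlapped between groups at 95.4 to 112 CPM (-0.10 ± 0.12). Of the 7 genes of this step none passed in the main edgeR fit, and Acadm, Acadvl and Etfb had an unadjusted p under 0.05, all lower.

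The later steps of the spiral held the called gene. Hadh (ENSRNOG00000010697) encodes the mitochondrial 3-hydroxyacyl-CoA dehydrogenase for short and medium chains, which carries out the further dehydrogenation. It had 895, 583, 1469 and 1340 counts, or 153, 164, 300.5 and 227 CPM. Both siCpeb4 libraries were above both controls, the lower of them 1.38 times the higher control, although they differed from each other by 1.33-fold. The mean rose from 158 ± 8.07 to 264 ± 52.2 CPM (SD, n = 2), 1.63-fold in the fit, with an estimated log2 change of 0.71 ± 0.13 (edgeR adjusted p = 0.00161). It ranked 86 of 11335 genes by p. The log2 fold change was 0.48 without siCpeb4 replicate 1 (edgeR adjusted p = 0.0278) and 0.91 without siCpeb4 replicate 2, and the call held in all 14 alternative analyses of the gene.

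Enzymes acting on the same intermediates gave smaller values. Hadha and Hadhb, the subunits of the trifunctional protein that does these steps for long chains, had 702, 692, 690.5 and 636 CPM and 583, 655, 603 and 629.9 CPM. Their log2 fold changes were -0.10 ± 0.10 for Hadha (edgeR adjusted p = 0.684) and -0.04 ± 0.10 for Hadhb (edgeR adjusted p = 0.911), each within about 1 SE of 0. Acaa2, the mitochondrial thiolase that acts after Hadh, had 191, 214, 274 and 235 CPM, with groups that did not overlap and an estimated log2 change of 0.30 ± 0.11 (edgeR adjusted p = 0.167), which was 0.18 without siCpeb4 replicate 1. Acaa1a, the peroxisomal thiolase, had 65.0, 61.9, 69.7 and 53.6 CPM (-0.08 ± 0.14), and its close paralogue makes unique mapping uncertain. Echs1, the short-chain enoyl-CoA hydratase just before Hadh, was listed at 0. Of the 5 tested genes 1 passed, Hadh, and 2, Hadh and Acaa2, had an unadjusted p under 0.05.

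Auxiliary enzymes bring the double bonds of unsaturated acids into a form the spiral accepts. Ech1, a dienoyl-CoA isomerase, had 403, 469, 487 and 405 CPM and an estimated log2 change of 0.00 ± 0.11 (edgeR adjusted p = 0.991), whose sign turned without control replicate 1 (-0.11) or siCpeb4 replicate 1 (-0.14). Decr1, the mitochondrial dienoyl-CoA reductase, had 0.00 ± 0.12. Eci1, an enoyl-CoA isomerase, had 261, 269.8, 249 and 219 CPM, with both siCpeb4 libraries lower, and an estimated log2 change of -0.21 ± 0.11 (edgeR adjusted p = 0.347), which was -0.11 without siCpeb4 replicate 2. None of the 3 passed in the main edgeR fit and none had an unadjusted p under 0.05.

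Pyruvate dehydrogenase kinases switch off the entry of glucose carbon into the mitochondrial cycle, and the heart uses more than one isoform. Pdk2 had 196, 215, 295 and 253 CPM, and Pdk4, the isoform best known as a target of fasting and PPAR signalling, had 68.0, 82.7, 58.7 and 62.9 CPM. Both siCpeb4 libraries were above both controls for Pdk2 and below both for Pdk4. The log2 fold changes were 0.39 ± 0.11 for Pdk2 (edgeR adjusted p = 0.0579) and -0.33 ± 0.13 for Pdk4 (edgeR adjusted p = 0.194, and -0.18 without control replicate 2). The ratio of Pdk2 to Pdk4 counts was 2.88 and 2.60 in controls and 5.02 and 4.03 after siRNA, so the groups did not overlap in it. With 2 libraries against 2, an exact two-sided permutation test of such a ratio cannot go below p = 0.333.

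The Pdk2 estimate lay at the edge of the threshold and passed with upper-quartile scaling (adjusted p = 0.0467), robust edgeR (0.029), no low-count filter (0.0173) and in edgeR without siCpeb4 replicate 2 (0.51, adjusted p = 0.024). It did not pass in DESeq2 (adjusted p = 0.114), and leaving out control replicate 1 gave 0.31 (edgeR adjusted p = 0.471) and leaving out siCpeb4 replicate 1 gave 0.27 (0.238). Acot2, a mitochondrial acyl-CoA thioesterase with close paralogues, had 26.1, 26.7, 26.4 and 15.1 CPM, with siCpeb4 replicate 2 alone low (-0.39 ± 0.22, edgeR adjusted p = 0.389). Ucp3, an uncoupling protein of muscle, had 3, 0, 4 and 3 counts and was not tested. Of the 3 tested genes of this group none passed in the main edgeR fit, and Pdk2 and Pdk4 had an unadjusted p under 0.05, in opposite directions.

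**Figure D2:**
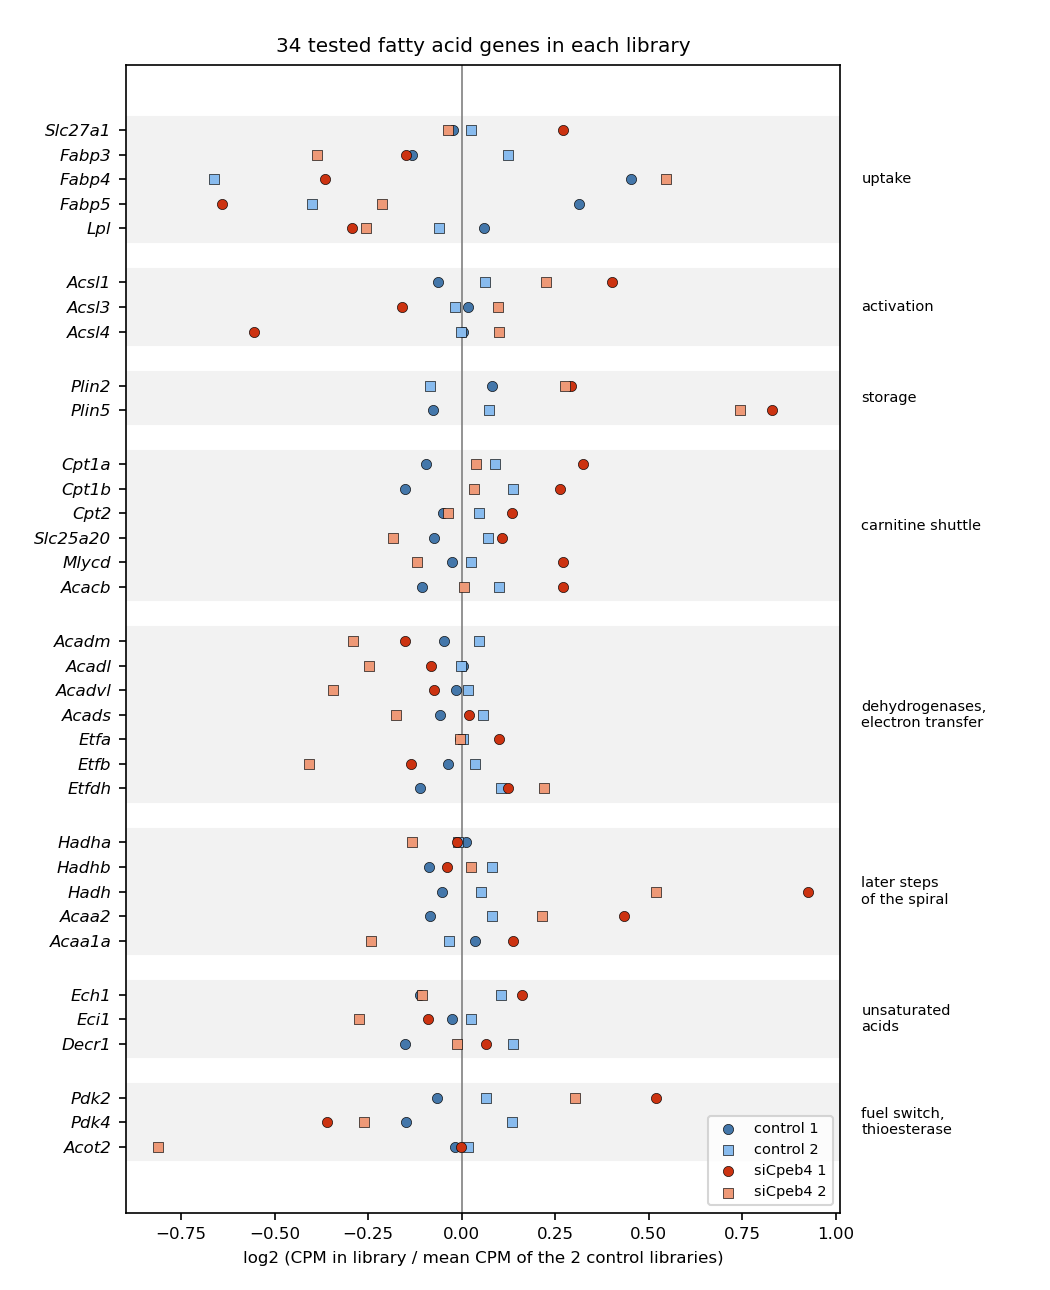
Each row is a tested gene, ordered by step, and each point is 1 library, placed at the log2 of its CPM over the mean CPM of the 2 control libraries. Hadh and Plin5 have both siCpeb4 points (red and orange) far to the right of the controls. In all 6 carnitine shuttle rows siCpeb4 replicate 1 (circle) lies right of siCpeb4 replicate 2 (square).

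Replicates of a group differed along the route in a shared direction. Of the 34 genes, 25 were higher in control replicate 2 than in control replicate 1 and 26 were higher in siCpeb4 replicate 1 than in siCpeb4 replicate 2. Over all tested genes with counts in every library those shares were 46.8% and 45.6%, against 73.5% and 76.5% in the list. The median log2 difference between the siCpeb4 replicates was 0.18 over the 34 genes, as large as the median absolute log2 fold change between groups. Summed over the 37 genes found, the list took 0.868% (Wilson 95% interval 0.861% to 0.876%, counting error only) and 0.933% (0.923% to 0.943%) of footprints in controls. It took 0.9297% (0.921% to 0.938%) and 0.833% (0.826% to 0.841%) after siRNA. Replicates of each group thus differed by more than the group means did. Cardiomyocyte marker sums of 56612 and 60857 CPM in controls and 61799 and 54893 CPM after siRNA were also lower in control replicate 1 and siCpeb4 replicate 2. The marker sums were mostly Myh6 and Myh7. Of the 9 cardiomyocyte markers tested, only Myh6 had an estimate above 0, and none passed. The part of the cardiomyocyte share in the sums of the list was not tested.

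Summed by step, footprints of activation, storage and the fuel switch group were higher in both siCpeb4 libraries, those of uptake and of the first dehydrogenation were lower, and the other sums overlapped between groups. Uptake and binding footprints summed to 2070.0 and 2255 CPM in controls and 1902 and 1713 CPM after siRNA, mostly Fabp3. Those of the first dehydrogenation and electron transfer summed to 2225 and 2309 CPM in controls and 2199 and 1967 CPM after siRNA. There siCpeb4 replicate 1 lay only narrowly below control replicate 1, by less than the siCpeb4 replicates differed. Activation footprints summed to 371 and 393 CPM in controls and 439.9 and 435 CPM after siRNA, mostly Acsl1. The estimates of Acsl3 and Acsl4 were below 0. Fuel switch footprints summed to 291 and 324 CPM in controls and 381 and 332 CPM after siRNA, mostly Pdk2. In this group siCpeb4 replicate 2 lay only narrowly above control replicate 2. The estimates of Pdk4 and Acot2 were below 0, so the higher sums of these 2 groups each rested on 1 gene. Storage footprints summed to 224 and 202 CPM in controls and 266 and 263 CPM after siRNA. The carnitine shuttle overlapped, with 1023 and 1175 CPM in controls and 1297 and 1087 CPM after siRNA. These sums are descriptions with no test.

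**Figure D3:**
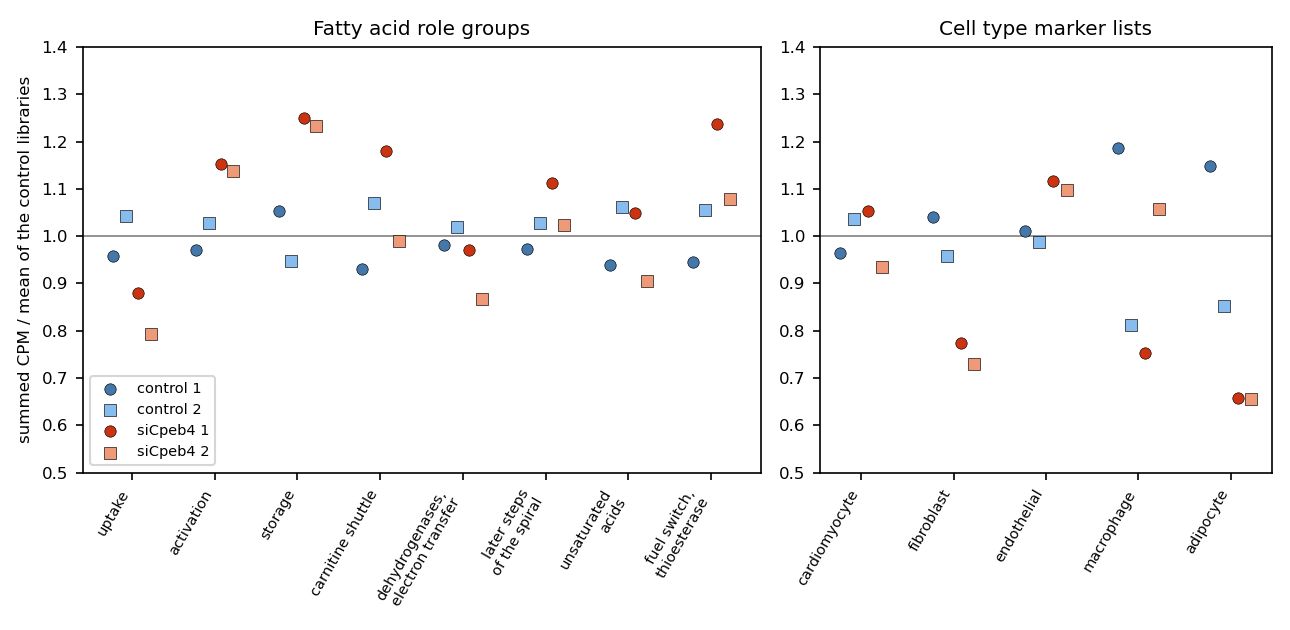
Each point is the summed CPM of a role group (left) or a cell type marker list (right) in 1 library, divided by the mean of the 2 control libraries. The siCpeb4 points lie at 0.879 and 0.792 for uptake and at 1.25 and 1.23 for storage. Those of the fibroblast markers, a sum that is mostly Col1a1 and Col3a1, lie at 0.773 and 0.7299. The siCpeb4 points of the endothelial markers, a sum that is mostly Aqp1, lie at 1.12 and 1.10. Macrophage markers split the replicates of both groups.

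Genes of the wider pathway outside the list were read from 6 further lists with 123 entries, of which 104 were tested. There 4 passed, 3 higher and 1 lower, which is 3.85% against the 3.41% of all genes tested, again close to the background. Of these, 3 are transcriptional regulators. Med1, the Mediator subunit through which PPARs and other nuclear receptors contact the transcription machinery, had 97.0 and 104 CPM in controls and 57.7 and 70.6 CPM after siRNA. Both siCpeb4 libraries lay well below both controls. Its mean fell from 101 ± 5.2 to 64.1 ± 9.1 CPM (SD, n = 2), with an estimated log2 change of -0.67 ± 0.12 (edgeR adjusted p = 0.00229), and the call held in all 14 alternatives.

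Ppargc1b, the coactivator PGC-1beta, which promotes mitochondrial and fatty acid genes together with ERR and PPAR receptors, had 132, 151, 206 and 188 CPM. It rose 1.37-fold in the fit (log2 fold change 0.46 ± 0.11, edgeR adjusted p = 0.0249). Leaving out control replicate 1 ended the call (edgeR adjusted p = 0.385), as did leaving out siCpeb4 replicate 1 (0.103). Hif1a, the oxygen-regulated transcription factor that favours glycolysis, had 300.3, 316, 422 and 445 CPM and rose 1.38-fold (edgeR adjusted p = 0.00949), a call that ended without control replicate 1 (edgeR adjusted p = 0.175). Of 20 regulators tested, 2 rose and 1 fell, and 8 had a positive estimate. Ppara had a log2 fold change of 0.18 ± 0.13 and Ppargc1a one of -0.04 ± 0.12.

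Among 15 tested peroxisomal genes, Crot passed. It encodes carnitine octanoyltransferase, which readies chains shortened in peroxisomes for export to mitochondria, and had 64.3, 63.3, 90.6 and 90.5 CPM. Replicates lay close together within each group. Crot rose 1.39-fold (log2 fold change 0.48 ± 0.12, edgeR adjusted p = 0.0249). It did not pass in DESeq2 (adjusted p = 0.109), nor in edgeR with any 1 library left out (adjusted p = 0.0685 to 0.184), while the log2 fold change stayed between 0.46 and 0.49 over the alternatives.

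No gene passed in the other 4 lists in the main edgeR fit, and the member of each with the smallest p is given here. Over all 104 genes DESeq2 called 3 and limma-voom called 4. Of the 104, 21 had an unadjusted p under 0.05 in edgeR, 16 higher and 5 lower. Over all genes tested the share was 16.1%, with 7.33% higher and 8.76% lower. Among the 104 the higher share was thus larger than over all genes and the lower share smaller. That difference was not tested, and genes of matched depth were not compared. The counts by list that follow are small and were not tested. Of 12 further uptake and activation genes 3 had an unadjusted p under 0.05, and Dbi, an acyl-CoA binding protein, had an estimated log2 change of -0.31 ± 0.11 (edgeR adjusted p = 0.139). Of 18 further lipid droplet and lipase genes 4 had one, all higher, and Lipa, the lysosomal acid lipase, had 0.34 ± 0.12 (edgeR adjusted p = 0.145), with 0.47 without siCpeb4 replicate 1 (0.0442) and 0.18 without siCpeb4 replicate 2 (0.554). Of 18 further mitochondrial genes 1 had one, Acsf3, the malonyl-CoA synthetase of mitochondria, with 0.35 ± 0.13 (edgeR adjusted p = 0.184). Of 21 acetyl-CoA, ketone and pyruvate genes 4 had one, all higher, and Pdpr, a regulatory subunit of pyruvate dehydrogenase phosphatase, had 0.33 ± 0.11 (edgeR adjusted p = 0.109).

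**Figure D4:**
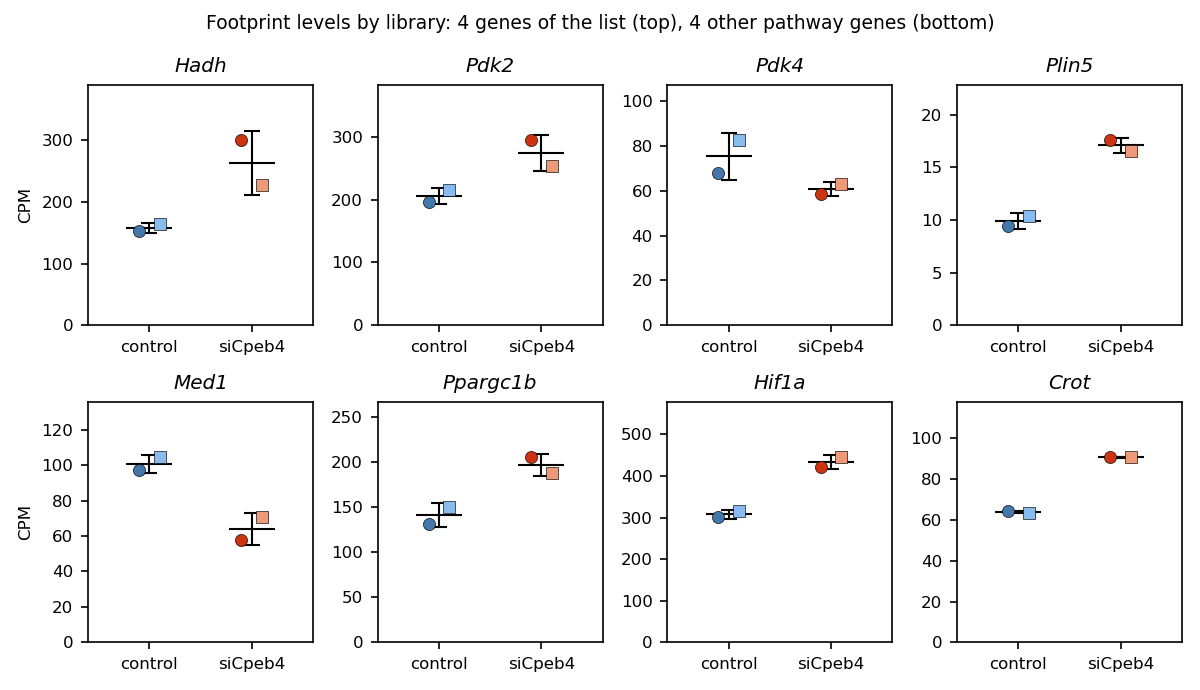
CPM of 8 genes by library, with circles for replicate 1, squares for replicate 2, blue for control and red or orange for siCpeb4, and a black line and bar for the mean ± SD of the 2 libraries. In each panel the groups do not overlap, with Pdk4 and Med1 lower and the other 6 higher after Cpeb4 siRNA. All 8 had an unadjusted p under 0.05 in edgeR, so the lack of overlap comes with the choice of genes. Groups did not overlap in 46.0% of all genes tested.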

How the data were processed

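Ribosome footprints of 4 libraries, 2 control and 2 siCpeb4, were analysed from raw counts per Ensembl gene as deposited, with no normalisation by the authors. The submitters' processing notes name the rat assembly Rnor_6.0 and the tools STAR 2.7, HTSeq 0.12 and Bowtie2. Their roles and the strand setting are not given in the sources used here. Per the labels on the deposited tables, these hold uniquely mapped reads of 29 to 34 nt, and of 29 to 33 nt for siCpeb4 replicate 2. Unique mapping can lose reads of close paralogues, and overlapping or antisense genes cannot be told apart. HTSeq summary rows, of which reads without a feature were 4.42% to 4.63%, were left out.

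Counts were tested in edgeR 4.0.16 by its quasi-likelihood F-test (R 4.3.3, TMM, filterByExpr with a minimum count of 10, group as the only term, two-sided) over 11335 genes, and genes with a Benjamini-Hochberg adjusted p under 0.05 were called. SE values derive from the F statistic. CPM uses each library's total gene count. The workflow was tested on simulated data. The named genes were every called gene, every list gene with an unadjusted p under 0.05, and for each step the gene with the smallest p and the most abundant one, and of other pathway genes those called and the smallest p per list. Ppara, Ppargc1a and the remaining list genes were named beyond that rule, after their values were seen. The list, its steps, the other lists and the rule were chosen with earlier results of these data known. Levels were not compared between genes, since coding lengths were not used here. Alternatives were RLE and upper-quartile scaling, DESeq2 1.42.0, limma-voom (limma 3.58.1), a replicate block, robust edgeR, a filter of 30 counts in 2 libraries or none at all, omission of the 20 most abundant genes, each library left out and a threshold of 0.10. A crossed pairing was added after seeing the data.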

Additional observations from a re-analysis of the deposited data

How the results depend on the processing

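Of the 34 listed genes tested, 1 passed, and the count was 2 with upper-quartile scaling, 3 with robust edgeR or a threshold of 0.10 and 5 with no low-count filter. With each library left out it was 1 to 3. Over all genes 386 passed, against 192 in DESeq2, 606 with no low-count filter, 629 at a threshold of 0.10 and 212 to 318 with 1 library left out (lowest without control replicate 1). Of other pathway genes 4 passed, and 1 to 4 with 1 library left out, the 1 being Med1 without control replicate 1. Robust edgeR called 449 of 11335 genes, upper-quartile scaling 395 of 11335, and the fit with no low-count filter 606 of 14513. Beside these, the 3, 2 and 5 of 34 listed genes were larger shares than over all genes, unlike in the main analysis. The differences in share rest on few genes and were not tested. The list's median log2 fold change ran from -0.073 without siCpeb4 replicate 1 to 0.070 without siCpeb4 replicate 2. With 1 library left out the log2 fold change of Cpt1b ran from -0.024 to 0.29 and that of Ech1 from -0.14 to 0.15. The remaining library of a group is then assumed to vary like the other group. The cause of these changes was not tested.

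The replicate numbers do not pair the libraries by any label. Deviations of same-numbered libraries from their group means correlated at -0.115 across genes. With the replicate block 403 of all genes, 1 listed gene and 4 other pathway genes passed, and no call of a named gene changed. A crossed pairing gave 481, 5 and 4. Depth limits Plin5, Fabp4 and Acot2 most, with 263 to 466 footprints each over the 4 libraries.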

Other observations

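Isoform pairs of the route kept or moved their count ratio between libraries. The ratio of Cpt1b to Cpt1a counts was 1.85 and 1.99 in controls and 1.85 and 1.92 after Cpeb4 siRNA, so the balance of muscle and liver isoform overlapped between groups. The ratio of Plin5 to Plin2 counts was 0.0436 and 0.0543 in controls and 0.0707 and 0.0673 after siRNA, without overlap. The ratio of Acsl1 to Acsl4 counts was 3.48 and 3.81 in controls and 7.07 and 3.97 after siRNA, and siCpeb4 replicate 1 alone stood apart. These ratios were not tested.

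In the RefSeq annotation of the rat assembly GRCr8, used for gene order only, all 39 genes were matched and lie on 15 chromosomes. Only Hadhb with Hadha, and Fabp4 with Fabp5, had 5 or fewer protein-coding genes between them. Hadhb and Hadha are direct neighbours on opposite strands, and their log2 fold changes were -0.04 ± 0.10 and -0.10 ± 0.10. Fabp4 and Fabp5 have 2 such genes between them, with 0.08 ± 0.30 and -0.45 ± 0.16.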
